A study of Homo sapiens with 24 samples.

Results

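A set of 7 genes of DNA repair and of the supply of DNA precursors, processes tied to the H3K36me3 mark, was followed through the RNA data of HEK293T cells that carry, lack or regain the methyltransferase SETD2. They are PMS2 of mismatch repair, BRCA1, BRCA2, PALB2 and RBBP8 of homologous recombination, and the pair WEE1 and RRM2. They were chosen by symbol, and all were found among the 58884 genes listed. HEK293T cells derive from human embryonic kidney and express the SV40 large T antigen. RNA was sequenced from 10 libraries in 2 separate tables. The first table holds 2 libraries of untreated wild-type (WT) cells and 2 of untreated SETD2 knockout (KO) cells, in which both alleles of the endogenous gene were disrupted. The second holds 2 libraries of untreated KO cells, 2 of KO cells rescued with full-length SETD2 (SETD2 FL) and 2 of KO cells rescued with SETD2 C, labelled N3, which spans residues 1404 to 2564, called here the FL and the C rescue. All groups of the second table thus share the knockout background. The constructs were transfected under a CMV promoter, and whether the KO line is 1 clone is not given in the sources used here. Because the KO libraries are labelled untreated, a change relative to KO cannot be told apart from an effect of transfection. SETD2 FL and SETD2 C were both transfected, but their SETD2 RNA differed as well as the construct. Between them, an effect of the truncation thus cannot be told apart from one of the amount of SETD2.

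SETD2 deposits H3K36me3 on transcribed genes, and the mark is read by repair proteins. MSH6, which recognises base mismatches, binds H3K36me3 through its PWWP domain, and LEDGF, the product of PSIP1, binds the same mark and helps to bring the resection factor CtIP, the product of RBBP8, to broken DNA. BRCA1, PALB2 and BRCA2 then act in sequence on the resected end. RRM2 is the small subunit of ribonucleotide reductase, which makes dNTPs, and WEE1 is the kinase that restrains CDK1 and CDK2. Cells without H3K36me3 are known to depend on WEE1, since loss of WEE1 activity lowers their already limited RRM2 and dNTP pools.

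Values are given as scaled TPM, that is, TPM (a share of all transcripts, estimated by RSEM) divided by a factor for each library. TPM is corrected for transcript length, so levels of different genes may be compared, but the depth behind it is unknown. The level of SETD2 itself was not lower in the libraries labelled KO than in those labelled WT (scaled TPM of 15.3 and 15.7 against 14.4 and 14.2), so this RNA does not serve as a check of those labels. SETD2 in the second table was 12.4 and 12.7 for KO, 459 and 424 in the FL rescue, and 1251 and 1183 in the C rescue. The share of TPM from mitochondrially encoded genes was 23.2% in WT replicate 1 against 12.0% to 14.1% in the other libraries of the first table, and 2.93% and 3.37% in the C rescue against 6.23% to 11.0% in the other libraries of the second. Of the markers of HEK293T cells, LIN28B, NEFM and VIM were above a TPM of 24 in every library, and PAX2 and EPCAM were between 0.51 and 3.37. PTPRC, CD3E, CDH5, PECAM1, ALB and DCN, markers of leukocytes, endothelium, hepatocytes and fibroblasts, were below 0.5 in every library, whereas COL1A1 reached 12.1. NEFM, EPCAM and COL1A1 were higher in the C rescue than in KO, and the part of these genes and of the mitochondrial share in the results was not tested. In bulk RNA a change in the share of cells and a change per cell cannot be told apart.

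All 7 genes passed the filter on low TPM in both tables. Among them RRM2 was the most abundant in KO of the second table, at 123 ± 1.83 (scaled TPM, SD, n = 2), followed by WEE1 at 35.2 ± 2.56, RBBP8 at 34.3 ± 2.52 and BRCA1 at 30.1 ± 0.0925. PALB2 followed at 12.7 ± 0.282, PMS2 at 8.29 ± 0.129 and BRCA2 at 5.23 ± 0.627. WEE1 and RBBP8 did not differ beyond their spread in these libraries. In the C rescue the order widened, with WEE1 at 39.0 ± 3.13, RBBP8 at 31.4 ± 0.239 and BRCA1 at 24.6 ± 1.38, while PALB2, at 10.1 ± 0.591, overlapped PMS2, at 10.1 ± 0.0122. In the WT libraries RBBP8 was second to RRM2, at 52.6 ± 0.196 against 125 ± 10.2. Both tables were made and scaled separately, and no level was compared across them.

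**Figure D1:**
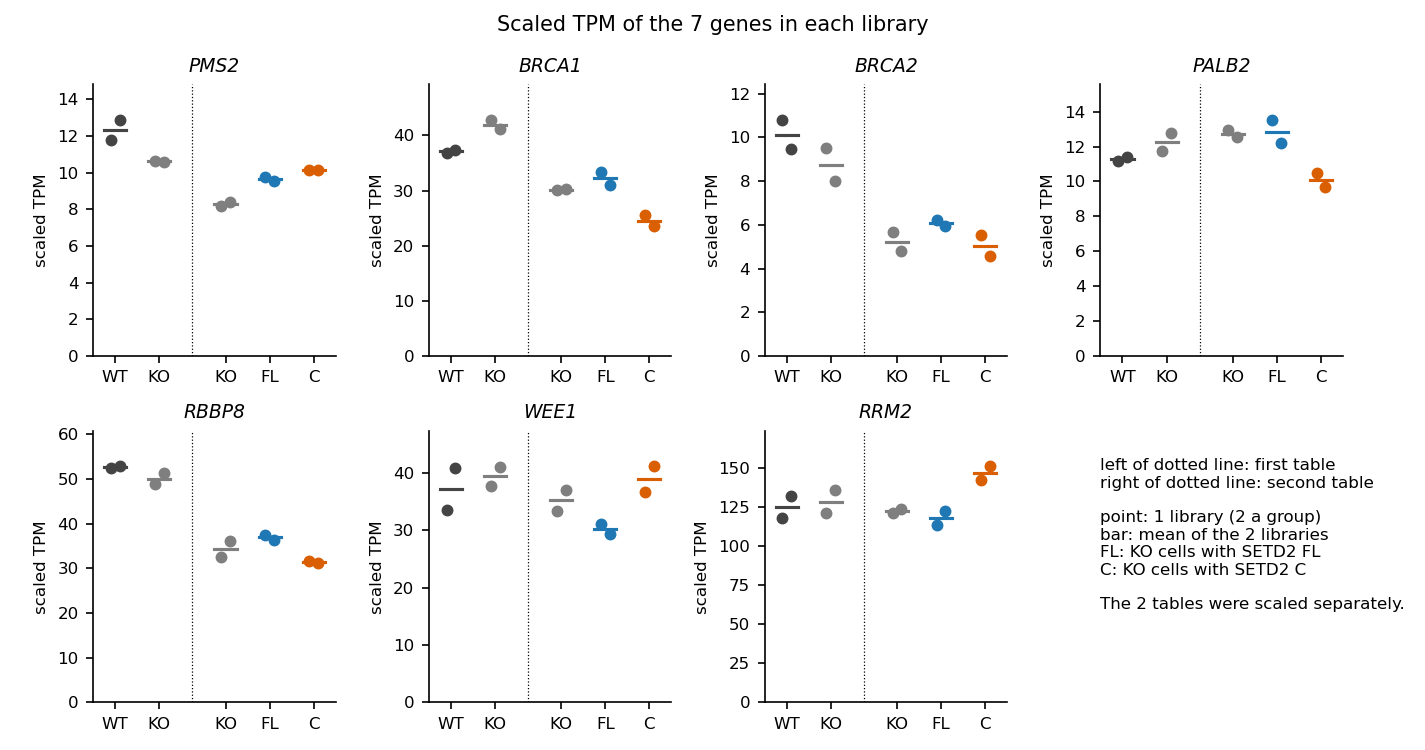
Scaled TPM of the 7 genes (vertical axis, starting at 0) in each of the 10 libraries, by group, with the first table to the left and the second to the right of the dotted line in each panel. Points are libraries and bars are means of 2. BRCA1 and PALB2 lie lowest in the second table in the C rescue (24.6 and 10.1), and RRM2 lies highest there (147).

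Between WT and KO in the first table, none of the 7 genes passed the test, which was an adjusted p of at most 0.05 from limma with Benjamini-Hochberg adjustment over 14741 genes. Of all genes tested, 1.32% passed as higher in KO and 3.17% as lower, 4.48% in all, and with a change of at least 2-fold 0.339% and 1.02%. At an unadjusted p under 0.05, 1 of the 7 (BRCA1) stood out, against 24.9% of all genes. For BRCA1 the scaled TPM was 36.9 and 37.4 under the WT label, and under the KO label it was 41.1 and 42.8. The groups did not overlap, and the log2 change in KO was 0.17 (SE 0.07, limma adjusted p = 0.19). PMS2 lay on the other side, at 11.8 and 12.9 in WT and 10.6 and 10.7 in KO (log2 change of -0.20, 95% interval from -0.42 to 0.01). RBBP8, at 52.5 and 52.8 in WT and 48.8 and 51.3 in KO, had a log2 change of -0.07. PALB2 had one of 0.11, with 11.2 and 11.4 in WT and 11.8 and 12.8 in KO. BRCA2 was at 9.46 and 10.8 in WT and 7.99 and 9.52 in KO (-0.20, 95% interval from -0.49 to 0.08), and like WEE1 and RRM2 it overlapped between the groups. In all, 2 of the 7 lay wholly higher in KO (27.4% of all genes) and 2 wholly lower (29.4%), together 56.9% of all genes. RRM2 was at 118 and 132 in WT and 121 and 136 in KO, a log2 change of 0.04 with a 95% interval from -0.18 to 0.26. WEE1 was at 33.6 and 40.9 in WT and 37.8 and 41.1 in KO (log2 change of 0.09, 95% interval from -0.17 to 0.34). Without WT replicate 1, which has the high mitochondrial share, WEE1 and RRM2 turned to -0.06 and -0.05 on the log2 scale.

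With SETD2 FL relative to the libraries labelled KO, again none of the 7 genes passed the test, and of the 15929 genes tested 0.176% were higher and 0.0314% lower, 0.207% in all (limma with Benjamini-Hochberg adjustment). With a change of at least 2-fold these shares were 0.0753% and 0.00628%. At an unadjusted p under 0.05 there were 2 of the 7, PMS2 and WEE1, against 15.9% of all genes. PMS2 was at 8.20 and 8.38 in KO and 9.52 and 9.74 in the FL rescue, a log2 change of 0.21 (SE 0.08, limma adjusted p = 0.258). WEE1 was at 33.4 and 37.0 in KO and 29.4 and 31.1 in the FL rescue, a log2 change of -0.22 (SE 0.08, limma adjusted p = 0.259). BRCA1, at 30.1 and 30.2 in KO, was at 31.1 and 33.4 in the FL rescue (0.09 on the log2 scale, 95% interval from -0.06 to 0.25). Both FL libraries lay above both KO libraries for 4 of the 7 (24.8% of all genes) and below them for 1 (23.4%), together 48.2% of all genes. The intervals of the other 4 genes also held 0, the widest being that of BRCA2, from -0.08 to 0.49.

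In the C rescue against the KO label, 2 of the 7 genes rose (PMS2 and RRM2) and 2 fell (BRCA1 and PALB2), where 21.1% of all genes tested were higher and 15.1% lower at the same adjusted p from limma, 36.2% in all (47.1% at an unadjusted p under 0.05, where 4 of the 7 stood). Against the FL rescue, 2 rose (WEE1 and RRM2) and 3 fell (BRCA1, PALB2 and RBBP8), where 21.4% of all genes were higher and 16.8% lower, 38.2% in all (48.8% at an unadjusted p under 0.05, where 5 of the 7 stood). No change reached 2-fold in either comparison, where 3.75% and 3.36% of all genes were higher by that much and 0.314% and 0.421% lower. Without overlap, 2 of the 7 lay higher and 3 lower in the C rescue than in KO (40.5% and 30.8% of all genes, together 71.3%). Between the C and the FL rescue 3 lay higher and 4 lower (40.3% and 32.0% of all genes, together 72.3%), so no member overlapped. Both comparisons with KO share its libraries, and without KO replicate 2 none of the 7 passed for the C rescue against KO (0 higher and 0 lower). The labels do not say whether replicates came from separate cultures, so p-values measure the spread between these libraries only.

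**Figure D2:**
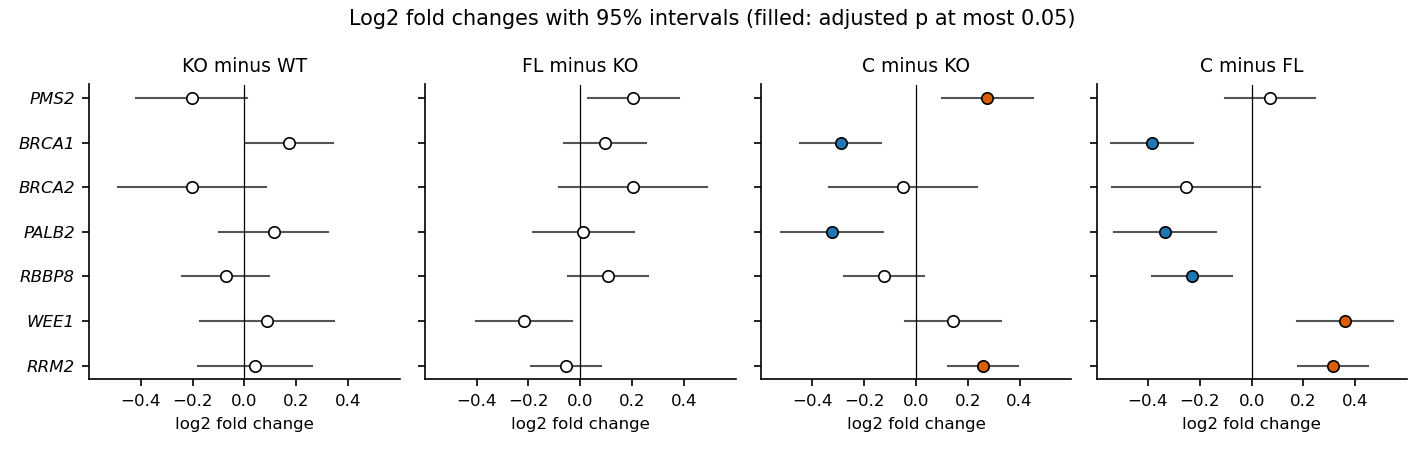
Log2 change (horizontal axis) of the 7 genes in the 4 comparisons, with bars for the 95% interval from limma and filled points at an adjusted p of at most 0.05. No point is filled in the comparisons of KO with WT and of SETD2 FL with KO, and 4 and 5 points are filled in the comparisons of the C rescue with KO and with the FL rescue.

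Among the recombination genes, BRCA1, which promotes resection and recruits PALB2, was at 23.6 and 25.5 in the C rescue, below the values of 30.1 and 30.2 in KO and 31.1 and 33.4 in the FL rescue. Its log2 change was -0.29 against KO (SE 0.07, limma adjusted p = 0.0135) and -0.39 against the FL rescue (SE 0.07, limma adjusted p = 0.00387), the latter a level of 0.765 times that in the FL rescue. The fall against the FL rescue passed the test under all 16 other settings and left-out libraries, with values from -0.50 to -0.26. PALB2, the bridge between BRCA1 and BRCA2, moved with it, from 12.5 and 12.9 in KO and 12.2 and 13.5 in the FL rescue to 9.67 and 10.5 in the C rescue. It fell by 0.32 on the log2 scale against KO (SE 0.09, limma adjusted p = 0.0211) and by 0.33 against the FL rescue (SE 0.09, limma adjusted p = 0.0172). RBBP8 (CtIP), which starts resection with the MRE11 complex, was at 31.2 and 31.6 in the C rescue against 36.4 and 37.4 in the FL rescue, and fell by 0.23 (SE 0.07, limma adjusted p = 0.0293). Against KO, at 32.5 and 36.1, its log2 change was -0.12 and did not pass, but it passed after adjustment for transcript length (-0.22, limma adjusted p = 0.0313) or GC content (-0.26, limma adjusted p = 0.0162). BRCA2, which acts after PALB2 on the resected end, was at 4.56 and 5.52 in the C rescue, 5.92 and 6.23 in the FL rescue, and 4.79 and 5.67 in KO. It did not pass in either comparison, and the 95% interval against the FL rescue ran from -0.54 to 0.03. Against the FL rescue BRCA2 passed under quantile normalization (-0.37, limma adjusted p = 0.0493) and after adjustment for GC content (-0.41, limma adjusted p = 0.0374). Of the 4 genes it was the least abundant and had the largest standard error, 0.12.

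The calls of BRCA1 and PALB2 against KO were lost without KO replicate 2, KO replicate 4 or C replicate 2 (limma adjusted p from 0.0513 to 0.116), that of PALB2 against the FL rescue without FL replicate 3 or C replicate 2 (0.0991 and 0.0971), and that of RBBP8 without any 1 of the 4 libraries (0.0712 to 0.118). Without scaling, the median of all genes was 0.18 against KO and 0.16 against the FL rescue, against 0.05 and 0.04 after scaling, and BRCA1 and PALB2 then stood at -0.15 and -0.18 against KO, neither past the test (limma adjusted p = 0.126 and 0.121). RBBP8 turned to 0.02 against KO without scaling, and BRCA2 to 0.09. Over all 16 alternatives, the calls against the FL rescue held in 9 for RBBP8 and in 13 for PALB2. Those of BRCA1 and PALB2 against KO held in 11 each.

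Of the 45 genes of the wider homologous recombination list, all were tested. Against KO, 8 rose and 10 fell in the C rescue, with a median log2 change of -0.04 against 0.05 over all genes, and against the FL rescue 6 rose and 5 fell, with a median of -0.01. Of all genes, 21.1% rose and 15.1% fell against KO, and 21.4% and 16.8% against the FL rescue. Of the resection complex, NBN fell by 0.23 and 0.29 against KO and SETD2 FL (limma adjusted p = 0.0434 and 0.0193), while MRE11 and RAD50 did not pass. The calls of NBN held under 6 and 12 of 16 alternatives. BARD1, the partner of BRCA1, did not pass in any comparison. BLM, a helicase of resection and of joint molecule dissolution, fell by 0.32 in both comparisons. Of the BRCA1-A complex, ABRAXAS1, BABAM1 and BABAM2 fell against KO, with log2 changes from -0.26 to -0.20, and BRCC3, its deubiquitinase, rose by 0.26. Increases included EME1, the partner of the nuclease MUS81 (0.58 against KO and 0.61 against the FL rescue), and PSMC3IP (0.39 and 0.50), RAD51AP1 (0.45 and 0.35) and RAD51B (0.44 and 0.41), which act in strand exchange. The calls of RAD51B held under 9 and 8 of 16 alternatives. These 45 genes moved in both directions. The split against KO was 14 higher and 0 lower without scaling, and 5 and 17 after adjustment for GC content. The shares of all genes moved the same way, to 34.6% and 7% without scaling and 14.3% and 25.8% after that adjustment. SEM1, a small partner of BRCA2, rose by 0.19 against KO but ranged from -0.04 to 0.34 over the alternatives. In the comparison of KO with WT, RAD52 was the only gene of the list to pass, lower in the libraries labelled KO with a log2 change of -0.78 (limma adjusted p = 0.0145).

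The other arm of break repair was counted in the same way. Of 17 genes of non-homologous end joining, 1 rose and 7 fell in the C rescue against KO, with a median of -0.10, and 2 rose and 6 fell against the FL rescue, with a median of -0.12, where 21.1% and 15.1% of all genes rose and fell against KO and 21.4% and 16.8% against the FL rescue. Without scaling the split was 2 higher and 3 lower (median 0.04) against KO and 2 and 1 against the FL rescue. Of all genes, 34.6% were then higher and 7% lower against KO (median 0.18), and 32.6% and 9.47% against the FL rescue. Both the list counts and the shares of all genes thus moved with the scaling. PRKDC, the catalytic subunit of DNA-PK, fell by 0.52 and 0.42, and TP53BP1, which restrains resection, by 0.29 and 0.39 (the former call held under 7 of 16 alternatives). LIG4, the ligase of the pathway, was lower in KO than in WT in the first table (log2 change of -1.07, limma adjusted p = 0.0131) and rose in the C rescue by 0.78 against KO in the second. Its level was low, at a TPM of 2.28 and 2.77 in WT and 1.01 and 1.06 in KO of the first table. In the second it was 1 and 0.98 in KO and 2.17 and 2.37 in the C rescue. There it was not tested where a TPM of at least 1 was required in every library. Of 19 Fanconi anemia genes, none rose and 4 fell against KO, led by FAAP20 at -0.52, and 3 rose and 2 fell against the FL rescue. Without scaling 6 were higher and 3 lower against KO, and 7 and 1 against the FL rescue. The shares of all genes beside these counts are those given above for end joining, with and without scaling. FANCD2 was the only gene of this list to pass between KO and WT. It was lower in KO (log2 change of -0.42, limma adjusted p = 0.0434), and the call held under 9 of 16 alternatives.

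**Figure D3:**
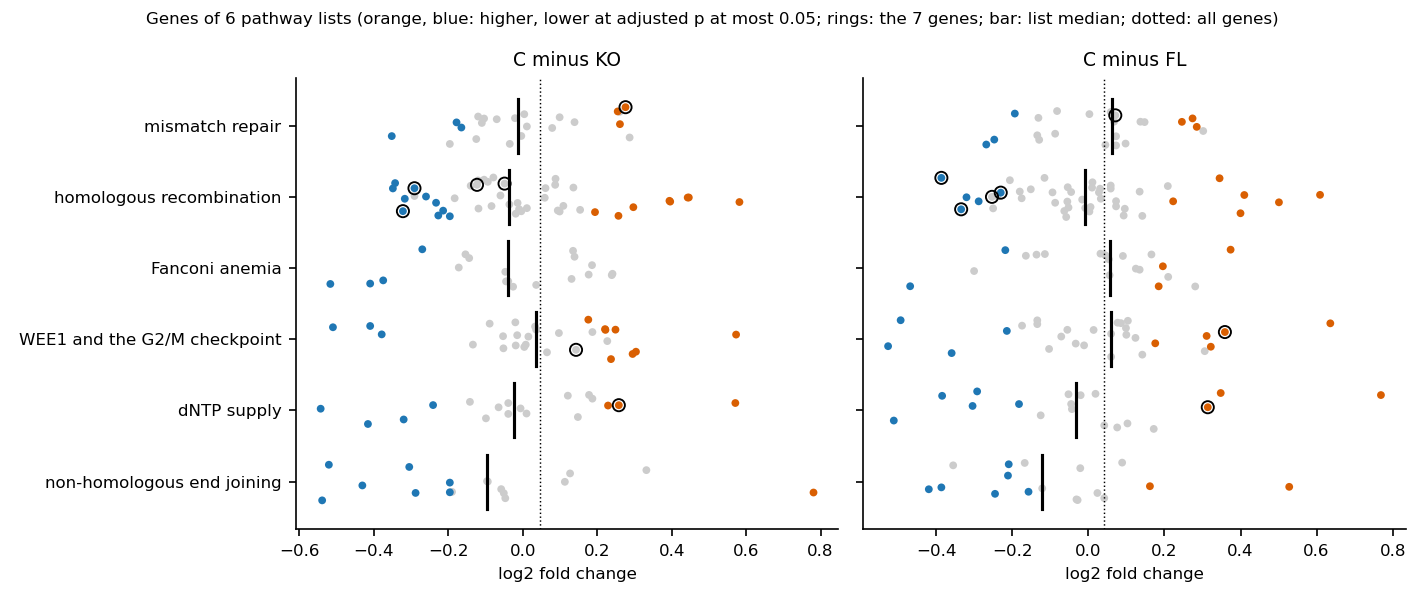
Log2 change (horizontal axis) of the genes of 6 pathway lists in the C rescue against KO and against the FL rescue, coloured where the adjusted p was at most 0.05, with rings around the 7 genes, black bars at list medians and a dotted line at the median of all genes (0.05 and 0.04). Each list holds genes on both sides of 0, and BRCA1 and PALB2 have the lowest values among recombination genes that passed against the FL rescue.

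PMS2 is part of the endonuclease that nicks the new strand near a mismatch. It rose in the C rescue against KO, to 10.1 and 10.2 from 8.20 and 8.38, a log2 change of 0.28 (SE 0.08, limma adjusted p = 0.0244). Against the FL rescue, at 9.52 and 9.74, the log2 change was 0.07 (95% interval from -0.10 to 0.25), so both rescues lay above KO by amounts that were not told apart. The call held in 9 of 16 alternatives. It was lost after adjustment for GC content (0.15, limma adjusted p = 0.144) or transcript length, under quantile normalization, and when any 1 of the 4 libraries was left out. PMS2 also shares long stretches with a family of copies, and the authors' estimates split reads among them. The tables list 11 copies (PMS2CL and the PMS2P pseudogenes), of which 8 to 10 were above 0 in each library. Their summed scaled TPM was 32.5 and 37.0 in KO, 33.2 and 35 in the FL rescue, and 40.5 and 40.0 in the C rescue, higher in the C rescue in the same direction as PMS2. PMS2 made up 18.5% to 22.7% of the TPM of the family in the second table and 24.0% to 24.8% in the first, so its value is uncertain.

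Among other mismatch repair genes, PMS1, MLH3, MSH3 and MSH6 did not pass in any comparison. MSH6, the H3K36me3 reader, was at 76.5 and 77.8 in the C rescue against 82.8 and 85.7 in KO. PSIP1 was at 145 and 165 against 158 and 146, and overlapped. Of the 22 mismatch repair genes, 3 rose and 3 fell in the C rescue in each comparison, with medians of -0.01 against KO and 0.06 against the FL rescue. Over all genes, 21.1% rose and 15.1% fell against KO, and 21.4% and 16.8% against the FL rescue. Against KO the split was 7 higher and 0 lower without scaling, and 1 and 9 after adjustment for GC content. The shares of all genes were then 34.6% and 7%, and 14.3% and 25.8%. Those that rose besides PMS2 were RFC2 and RFC3 in both comparisons and RFC4 against the FL rescue, subunits of the clamp loader. Those that fell were the clamp PCNA and the polymerase subunit POLD1 in both, POLD2 against KO and the ligase LIG1 against the FL rescue. In the first table LIG1 was lower in KO than in WT (log2 change -0.58, limma adjusted p = 0.0457). The calls of LIG1 held under 9 of 16 alternatives in the first table and 8 in the second.

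WEE1 phosphorylates CDK1 and CDK2 on an inhibitory tyrosine. It was at 36.8 and 41.2 in the C rescue and 29.4 and 31.1 in the FL rescue, and rose by 0.36 on the log2 scale, or 1.28-fold (SE 0.08, limma adjusted p = 0.0104). Against KO, at 33.4 and 37.0, the groups overlapped and the log2 change was 0.14 (95% interval from -0.04 to 0.33). WEE1 thus stood lowest in the FL rescue, with KO between. The rise against the FL rescue was lost without FL replicate 4 or C replicate 2 (limma adjusted p = 0.056 and 0.0706). Without scaling WEE1 was 0.29 against KO and passed (limma adjusted p = 0.018). PKMYT1, the related kinase that adds inhibitory phosphates to CDK1 at membranes, went the other way, at 57.8 and 54.1 in the C rescue against 77.7 and 82.1 in KO and 81.7 and 76.2 in the FL rescue. It fell by 0.51 and 0.49 (limma adjusted p = 0.00109 and 0.00106). CDK1, the shared substrate, was at 171 and 181 in the C rescue, 114 and 122 in KO and 114 and 112 in the FL rescue, and rose by 0.57 and 0.64 (limma adjusted p = 0.000409 and 0.000237). The changes of PKMYT1 and CDK1 passed the test under all 16 alternatives in both comparisons.

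Of the 28 genes of the G2/M checkpoint list, 8 rose and 3 fell in the C rescue against KO, with a median of 0.03, and 5 rose and 4 fell against the FL rescue, with a median of 0.06. The shares of all genes were 21.1% and 15.1% against KO, and 21.4% and 16.8% against the FL rescue. ATR, the kinase that senses replication stress, fell by 0.41 and 0.53, and its partner ATRIP by 0.38 and 0.36. Other genes of the list were higher in the C rescue than in KO. RAD17 was at 29.2 and 30.1 against 25.9 and 23.8, and RAD1 at 25.1 and 24.8 against 21.5 and 21.1. CLSPN was at 14.3 and 15.6 against 11.8 and 12.4, and FBXW11 at 34.9 and 35.9 against 28.4 and 28.7. CHEK1, the effector of ATR, did not pass, at 52.9 and 59.2 in the C rescue against 56.4 and 57.0 in KO. CCNB2 rose in both comparisons, and CCNB1 and PLK1 against KO, by 0.18 to 0.24. Of the CDC25 phosphatases, which remove the WEE1 phosphate, CDC25A and CDC25B did not pass in the second table and CDC25C fell by 0.21 against the FL rescue. CDC25B was higher in KO than in WT in the first table (log2 change of 0.38, limma adjusted p = 0.0413). These calls of CDC25C and CDC25B held under 5 and 9 of 16 alternatives. After adjustment for GC content, 1 gene of this list rose and 5 fell against KO, and 3 and 8 against the FL rescue. The shares of all genes then were 14.3% higher and 25.8% lower against KO, and 15.4% and 25.7% against the FL rescue.

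RRM2 was at 143 and 151 in the C rescue, above the values of 121 and 124 in KO and 114 and 123 in the FL rescue, and was the only one of the 7 to rise in both comparisons. Its log2 change was 0.26 against KO (SE 0.06, limma adjusted p = 0.0118) and 0.31 against the FL rescue (SE 0.06, limma adjusted p = 0.00478), or 1.20-fold and 1.24-fold. The rise against the FL rescue passed the test under all 16 alternatives, from 0.20 to 0.44. That against KO was lost after adjustment for GC content (0.13, limma adjusted p = 0.12) or for transcript length (0.16, limma adjusted p = 0.0712), and without KO replicate 2 (0.24, limma adjusted p = 0.0585) or C replicate 2 (0.22, limma adjusted p = 0.0778). RRM1, the large subunit, did not pass in any comparison, at 126 and 128 in the C rescue against 124 and 130 in KO and 119 and 127 in the FL rescue. RRM2B, the small subunit induced by p53, was less abundant than RRM1 and RRM2. It was at 11.5 and 12.7 in the C rescue against 10.1 and 11.2 in KO (log2 change of 0.18), and it missed the threshold. SAMHD1, which degrades dNTPs, did not pass either, and CCNF, which targets RRM2 for destruction, fell by 0.29 against the FL rescue.

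Of the 18 genes of dNTP supply, 3 rose and 4 fell in the C rescue against KO, and 3 rose and 5 fell against the FL rescue, beside the shares of all genes of 21.1% and 15.1%, and 21.4% and 16.8%. The balance turned with the processing, with 7 higher and 2 lower against KO without scaling and 1 and 6 after adjustment for GC content, and 5 and 3, and 2 and 6, against the FL rescue. The shares of all genes turned too. Against KO they were 34.6% higher and 7% lower without scaling, and 14.3% and 25.8% after GC adjustment. Against the FL rescue they were 32.6% and 9.47%, and 15.4% and 25.7%. Of the kinases of the salvage pathway, TK2 rose by 0.57 and 0.77 and DCK by 0.23 and 0.35. TK1 overlapped, at 95.7 and 86.8 in the C rescue against 94.9 and 92.4 in KO. DTYMK, which phosphorylates dTMP, fell by 0.54 and 0.51, MTHFD1 of folate metabolism by 0.42 and 0.38, and NME1 and NME2, which make the triphosphates, by 0.18 to 0.32. In the comparison of KO with WT, SHMT1 was higher (0.41, past the test in 10 of 16 alternatives) and no other gene of the list passed.

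Ratios of TPM within a library do not depend on scaling, and 8 were taken after the values had been seen. RRM2 to RRM1 was 1.14 and 1.18 in the C rescue, 0.977 and 0.951 in KO, and 0.953 and 0.964 in the FL rescue. WEE1 to PKMYT1 was 0.635 and 0.761 in the C rescue against 0.430 and 0.451 in KO and 0.381 and 0.385 in the FL rescue. Both ratios were higher in each SETD2 C library than in the other 4 libraries of the table. CDK1 to WEE1 was also highest there, at 4.65 and 4.39 against 3.28 to 3.80 in the other 4. WEE1 itself was higher there than in the FL rescue but overlapped KO. RRM2 to BRCA1 was 5.59 and 6.41 in the C rescue, 4.04 and 4.11 in KO, and 3.41 and 3.94 in the FL rescue. WEE1 to BRCA1 was 1.44 and 1.75 against at most 1.23. RRM2 to RRM2B overlapped KO (11.9 and 12.4 against 11.0 and 12.1). BRCA1 to BARD1 was lower in the C rescue, at 3.87 and 4.27 against 4.53 to 6.28, and PALB2 to BRCA2, at 1.90 and 2.12, overlapped the FL rescue at 2.06 and 2.17. In the first table RRM2 to RRM1 overlapped between WT, 1.06 and 1.14, and KO, 1.11 and 1.16, as did WEE1 to PKMYT1 and RRM2 to BRCA1. WEE1 to BRCA1 overlapped as well. The other 4 did not overlap. RRM2 to RRM2B was 12.6 and 13.4 in WT and 10.5 and 11.5 in KO, and CDK1 to WEE1 was 2.09 and 2.23 in WT and 2.02 and 2.07 in KO. Ratios higher in KO were BRCA1 to BARD1, at 8.36 and 8.97 against 7.02 and 7.43, and PALB2 to BRCA2, at 1.24 and 1.60 against 1.03 and 1.20. With 2 libraries against 2, an exact permutation test cannot give a p below 0.333.

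**Figure D4:**
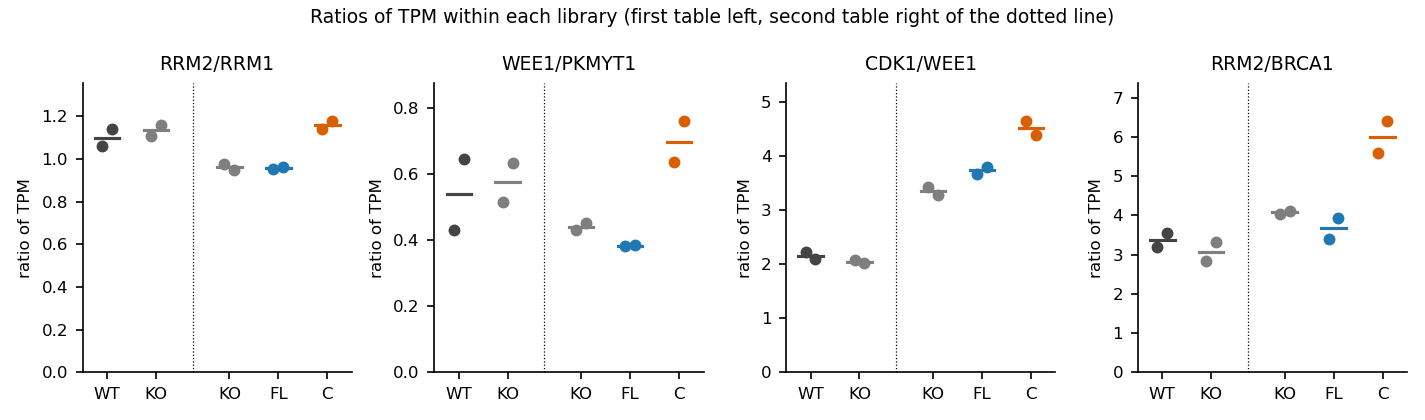
Ratios of deposited TPM within each library (vertical axis, starting at 0) for 4 pairs of genes, with points for libraries, bars for means of 2 and the 2 tables on either side of the dotted line. The SETD2 C libraries lie above all others of the second table in each panel, with RRM2 to BRCA1 at 5.59 and 6.41 against at most 4.11.

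The promoters of RRM2 and PMS2, which rose against KO, are shown beside those of BRCA1 and PALB2, which fell. CCAAT boxes, bound by NF-Y, are a common feature of cell cycle promoters. RefSeq promoters on GRCh38.p14, short windows around each listed start, were matched by symbol for 6 of the 7 genes, and WEE1 was not matched. PMS2, BRCA1, RBBP8 and RRM2 have 2 listed starts each. The capitals mark CCAAT, or ATTGG where the box lies on the other strand, in windows of 30 bases printed 5′ to 3′ on the strand of the gene. The RRM2 windows (chr2:10122604-10122633, chr2:10122634-10122663 and chr2:10122661-10122690, plus strand) start their boxes 123, 93 and 66 bases before the second listed start.
RRM2 box 1: ggcaaggcgcagCCAATgggaagggtcgga
RRM2 box 2: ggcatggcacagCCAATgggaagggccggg
RRM2 box 3: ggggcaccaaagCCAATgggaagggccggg
The PMS2 windows (chr7:6009209-6009238, chr7:6009164-6009193 and chr7:6009087-6009116, minus strand) lie 177, 132 and 55 bases before its first listed start.
PMS2 box 1: cggtgtgctctgATTGGcccaggctctttg
PMS2 box 2: cctttgacagagCCAATaggcgaaaaggag
PMS2 box 3: cgtcgaaagcagCCAATgggagttcaggag
BRCA1 (chr17:43125522-43125551, minus strand) and PALB2 (chr16:23641319-23641348, minus strand) have 1 box each, 175 and 26 bases before the first listed start.
BRCA1 box: cagactgggtggCCAATccagagccccgag
PALB2 box: atggtggatttaATTGGccggagtttaggg
At least 1 CCAAT on either strand was found in 34.6% of all 35116 promoters listed and at least 3 in 3.26%. BRCA2 and RBBP8 had none in their windows. The 3 boxes printed for RRM2 belong to its second listed start. Its first listed start had 1 CCAAT, 249 bases before it, which is not printed, and the second listed start of BRCA1 had none. Of 4 E2F forms searched on both strands (TTTCCCGC, TTTGGCGC, TTTCGCGC and TTTGCCGC, found in 3.31% of promoters), 1 was found, TTTGCCGC in PMS2. TTTGAA, the core of the CHR element, was found in none of the 6 genes and in 15.2% of promoters. A match is a description of the letters only.

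RRM2 (ENSG00000171848) lies on chromosome 2 of GRCh38 from 10120698 to 10211725 in GENCODE 44, WEE1 (ENSG00000166483) on chromosome 11 from 9573670 to 9593457 and BRCA2 (ENSG00000139618) on chromosome 13 from 32315086 to 32400268, all on the plus strand. RBBP8 (ENSG00000101773) lies on the plus strand of chromosome 18 from 22798261 to 23026488. On the minus strand lie PMS2 (ENSG00000122512), on chromosome 7 from 5970925 to 6009130, BRCA1 (ENSG00000012048), on chromosome 17 from 43044295 to 43170245, and PALB2 (ENSG00000083093), on chromosome 16 from 23603160 to 23641321. The reference transcripts run from 3258 nt for RRM2, with 10 exons, to 11954 nt for BRCA2, with 27 exons. BRCA1 overlaps 7 listed genes. Of these, AC060780.1, a lncRNA on the same strand, had a mean TPM of 7.67 in the second table and NBR2, on the other strand, 2.66. The use of strand in the counting is not given in the sources used here, so reads of these genes and of BRCA1 may be shared. No gene that overlaps another of the 7 had a mean TPM of 1 or more there.

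Genes with a pattern like that of members were sought over the 10 libraries, after the mean of each table was subtracted, among 10126 genes. The points come from 5 groups of 2 and share libraries, so the values describe these libraries only. BRCA1 was most like NOTCH2 (Pearson r of 0.985) and PIGS (0.984), and RRM2 was most like SEPT7 (0.986) and ARMC8 (0.978). PMS2 was most like EDA2R (0.969) and CA12 (0.965), and PALB2 most like NUP107 (0.974) and TRAF3IP1 (0.972). WEE1 was most like YOD1 (0.964) and SMYD4 (0.953). BRCA2 was most like OSCP1 (0.960) and CACNA2D2 (0.892). Among the genes of the pathway lists, the closest to PALB2 was BRCA1 (0.930) and the closest to both RRM2 and WEE1 was DCK (0.930 and 0.918). Within the 7, WEE1 and RRM2 went together (0.832). Both ran opposite to BRCA2 (-0.868 and -0.715), BRCA1 (-0.594 and -0.798), PALB2 (-0.502 and -0.742) and RBBP8 (-0.581 and -0.669), but not to PMS2 (0.098 and 0.389).

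**Figure D5:**
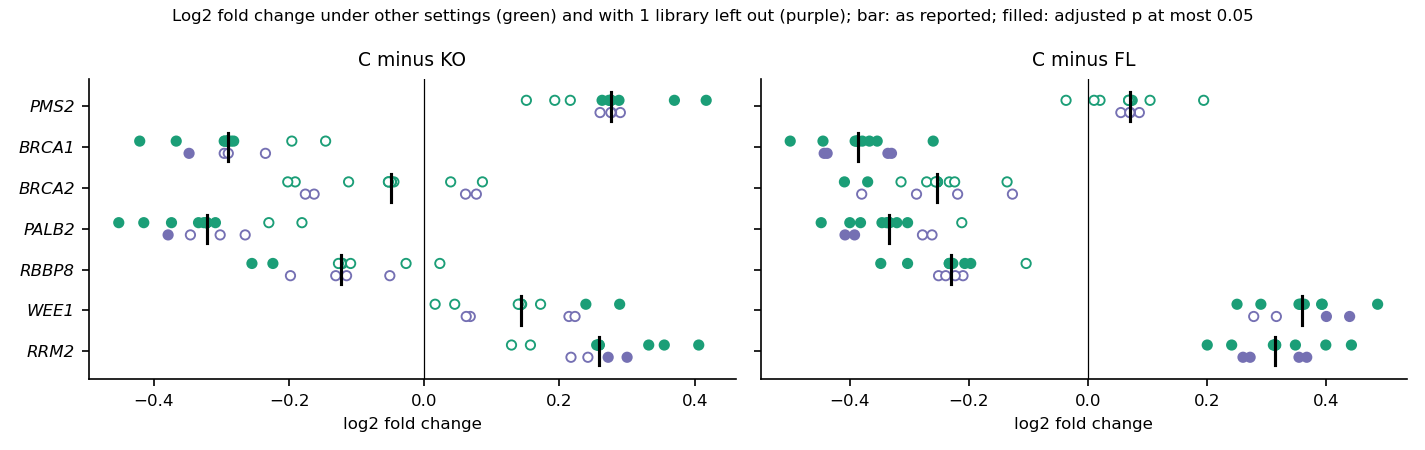
Log2 change (horizontal axis) of the 7 genes in the C rescue against KO and against the FL rescue under other settings (green) and with 1 library left out (purple), with a black bar at the value reported and filled points at an adjusted p of at most 0.05. All points of BRCA1 and RRM2 are filled against the FL rescue, and those of BRCA2 and RBBP8 against KO lie on both sides of 0.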

How the data were processed

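The RNA-seq data comprise 10 libraries of HEK293T cells, and the 14 ChIP-seq samples of the series were not analysed here. The authors aligned paired reads with STAR 2.6.1c to hg38 with Ensembl 96 gene models and deposited TPM per gene from RSEM 1.3.0, not normalized between libraries. TPM has a fixed sum in every library, so depth and counting error are unknown.

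Each library was divided by the median, over protein-coding and lncRNA genes with TPM of 1 or more throughout its table, of its ratios to the geometric mean. Protein-coding and lncRNA genes that reached a TPM of 0.5 in 2 or more libraries were then fitted as log2(scaled TPM + 0.5) in limma 3.58.1 (R 4.3.3, eBayes with a trend), with Benjamini-Hochberg adjustment over 14741 genes (first table) or 15929 (second). On this scale the changes of low genes are understated. All 6 libraries of the second table entered one model, and comparisons stayed within a table. Gene types and positions are those of GENCODE 44 on GRCh38 (58472 genes matched on identifier, 18 on symbol, 394 unmatched).

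The members and lists were chosen with earlier results of these data known. The genes named are the 7 members, fixed partners and, per list and comparison, up to 3 of the largest changes that passed, and other list members were chosen after their values were seen. Likeness was searched among genes with a mean TPM of at least 5. The fits were tested on simulated data. Alternatives covered pseudocounts of 0.1 and 1, filters, scalings, gene types, adjustment for length and GC content, the trend, a replicate block and each library left out. Some results are not reported here.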

Additional observations from a re-analysis of the deposited data

How the results depend on the processing

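Each comparison was run under 16 alternatives. For KO against WT and for the FL rescue against KO, 0 members passed in any of them. For the C rescue against KO, where 2 members rose and 2 fell, 0 fell without scaling and 0 with TPM rescaled without mitochondrially encoded genes and SETD2, whereas 1 rose under quantile normalization and 0 after adjustment for transcript length or GC content. With 1 library left out, 0 to 1 rose and 0 to 2 fell. For the C against the FL rescue, 1 fell without scaling, and with 1 library left out 1 to 2 rose and 1 to 2 fell. BRCA1 and RRM2 passed in all 16 there. WEE1 passed in 14, and was lost without FL replicate 4 (limma adjusted p = 0.056) and without C replicate 2 (0.0706).

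Directions turned for values near 0. Without scaling, RBBP8 was 0.056 for KO against WT, and BRCA2 and RBBP8 were 0.086 and 0.023 for the C rescue against KO. With TPM rescaled, RRM2 was 0.008 for the FL rescue and BRCA2 0.039 for the C rescue, both against KO. PALB2 in the FL rescue against KO was -0.015 after length adjustment and -0.004 after GC adjustment, and PMS2 in the C against the FL rescue -0.037 after GC adjustment. With 1 library left out, KO against WT ranged from -0.055 to 0.226 for WEE1 and from -0.046 to 0.125 for RRM2, PALB2 in the FL rescue against KO from -0.061 to 0.084, and BRCA2 in the C rescue against KO from -0.176 to 0.077. The causes were not tested.

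WT and KO of the first table share replicate numbers 1 and 2, which the labels tie to no shared batch. The deviations of same-numbered libraries had r = 0.147, and with the replicate block 0 members passed, with BRCA1 at 0.173 (limma adjusted p = 0.156). No paired analysis was possible because the groups of the second table share fewer than 2 replicate numbers. Depth is unknown, and 2 libraries a group limit the precision.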
